A study of Mus musculus with 5 samples.

Results

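The genes described here encode enzymes that write or erase histone marks and subunits of the Polycomb repressive complexes, measured in Trip12 mut/mut and wild-type (WT) mouse embryonic stem cells. They were taken by symbol: the lysine demethylases (Kdm), zinc-dependent deacetylases (Hdac), sirtuins (Sirt), SETD-type methyltransferases and arginine methyltransferases (Prmt), together with a fixed list of Polycomb, Ehmt, Setdb1 and Dot1l genes. This gave 68 of the 18193 genes on the array, covered by 166 probe sets, and the probe set of highest mean signal on the 5 arrays stood for its gene. The 5 Affymetrix arrays came from 3 samples labelled Trip12 mut/mut, homozygous for a mutation of the ubiquitin ligase gene Trip12, and from 2 WT samples, each named a biological replicate. All were E14 embryonic stem cells grown on mouse embryo fibroblast feeder cells with leukaemia inhibitory factor, knockout serum replacement and a low dose of fetal bovine serum. The nature of the mutation, the number of mutant clones, and whether replicates were separate cultures are not stated in the labels used here, and p-values therefore measure only the spread between these samples, which may be technical. Values are log2 RMA values, in which a difference of 1 is 2-fold, and differences are given as mutant minus WT.

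Histone tails carry acetyl and methyl groups that are added and removed by dedicated enzymes, and these groups help to set whether the nearby gene is open to transcription. Polycomb repressive complex 2 (PRC2) methylates a lysine of histone H3, and Polycomb repressive complex 1 (PRC1) attaches ubiquitin to histone H2A; in embryonic stem cells the pair keeps genes of later development silent while leaving them ready for use. Deacetylases and sirtuins remove acetyl groups, demethylases of the Kdm family remove methyl groups from lysines, and Prmt enzymes methylate arginines of histones and many other proteins.

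Promoter sequences are shown for the member with the largest positive difference, Prmt8, for the member with the next largest positive difference, Hdac9, and for the autosomal member with the largest negative difference, Setd7. Each runs 5′ to 3′ on the gene's own strand, from 250 bases before to 50 bases after the first start listed by RefSeq (GRCm38.p6), and capitals mark CpG dinucleotides. All 3 genes lie on the minus strand, Prmt8 at chr6:127769106-127769405, Hdac9 at chr12:34917046-34917345 and Setd7 at chr3:51560774-51561073.
Prmt8: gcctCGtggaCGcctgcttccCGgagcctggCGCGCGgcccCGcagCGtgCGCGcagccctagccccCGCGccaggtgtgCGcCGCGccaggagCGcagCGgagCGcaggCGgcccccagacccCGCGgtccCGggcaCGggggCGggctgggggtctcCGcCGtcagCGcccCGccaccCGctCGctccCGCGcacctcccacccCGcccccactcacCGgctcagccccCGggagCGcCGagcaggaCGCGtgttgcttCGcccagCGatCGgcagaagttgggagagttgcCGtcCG
Hdac9: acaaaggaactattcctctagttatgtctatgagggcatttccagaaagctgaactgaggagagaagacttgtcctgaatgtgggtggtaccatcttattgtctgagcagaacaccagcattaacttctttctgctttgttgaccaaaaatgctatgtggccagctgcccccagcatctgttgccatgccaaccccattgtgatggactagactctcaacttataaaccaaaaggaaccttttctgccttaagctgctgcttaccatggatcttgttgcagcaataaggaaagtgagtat
Setd7: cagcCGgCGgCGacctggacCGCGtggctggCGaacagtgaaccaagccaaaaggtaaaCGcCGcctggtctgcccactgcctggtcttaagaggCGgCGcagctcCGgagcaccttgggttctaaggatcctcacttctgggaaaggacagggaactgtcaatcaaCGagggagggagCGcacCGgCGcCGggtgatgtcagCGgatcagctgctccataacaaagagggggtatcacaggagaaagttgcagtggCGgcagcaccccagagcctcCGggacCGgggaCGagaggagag
The Prmt8 window holds 44 CpGs and is 79% G and C, the Setd7 window holds 21 CpGs, and the Hdac9 window holds 0 CpGs at 44% G and C. At least 44 CpGs were found in 2.19% of the 27025 first-listed promoters in the table, and 0 CpGs in 5.78% of them. The letters GGGCGG, searched on both strands and each containing a CpG, occur in the Prmt8 window and not in those of Hdac9 and Setd7, while TATAAA, searched on both strands, occurs only in the Hdac9 window among these 3. Over the 58 members with a listed promoter, GGGCGG was present in 63.8% and TATAAA in 6.90%, against 35.9% and 14.2% of all listed promoters. The members' median was 22.5 CpGs, against 7 over all listed promoters. For Prmt8 and Hdac9 2 starts each were listed, and for Setd7 1, and only the window of the first was read. These are descriptions of sequence, and the arrays measured transcript level only.

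The array labelled Trip12 mut/mut replicate 1 read like the WT arrays, which bears on every value below. Of 45037 probe sets without controls, 0 differed by more than 2-fold between it and either WT array, whereas 293 to 545 differed when replicates 2 and 3 were set against the WT arrays. The brightest of the Trip12 probe sets stood at 0.983-fold, 3.69-fold and 5.13-fold of the WT mean on replicates 1, 2 and 3. Of the other 4 with a WT mean above 5.52, 3 stood at 1.41-fold to 2.17-fold on replicates 2 and 3, and 1 at 0.751-fold and 0.551-fold. Where its probe sets lie with respect to the mutated site is not stated in the labels used here, so this is no check of the mutation itself. Embryonic stem cell markers averaged 11.22 to 11.37 on the 3 mutant arrays and 11.37 to 11.38 on the WT arrays, and all 10 lay above the median of all probe sets, 5.52. With the array labelled replicate 1 left out and dim genes removed, 1 of these 10 fell, Utf1, by 0.80 (limma, adjusted p = 0.0422), and 0 rose. Markers of fibroblasts, the feeder cell type, averaged 10.17, 10.56 and 10.61 on mutant replicates 1, 2 and 3, against 10.19 and 10.19 in WT, and 13 of 14 lay above that median in WT. Of the 13 tested with the array labelled replicate 1 left out, 4 rose and 0 fell. Of 3 trophoblast markers tested there 2 fell, the keratin genes Krt7 and Krt18, while Hand1 differed by -0.09. Cdx2, Elf5 and Gata3 were too dim to be tested and differed by -0.08, -0.14 and 0.67. Of 3 primitive endoderm markers tested 0 passed. What part these cell types had in the differences below was not tested, and in such bulk RNA fewer cells of a type and less RNA per cell cannot be told apart.

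Averaged over mutant replicates 2 and 3, 94.1% of the members read within 0.5 of WT, close to the 90.7% of all genes. The members beyond 0.5 were Prmt8, Hdac9 and Hdac8, which were higher, and Kdm5d, which was lower, mainly on replicate 3. Over all 5 arrays as labelled, 0 of 68 members passed an adjusted p of 0.05 in limma, as did 0.0% of all genes, and the members' adjusted p-values lay between 0.748 and 0.990. Setd4 alone among the members had an unadjusted p below 0.05 (0.046), which is 1.47% of the members beside 1.18% of all genes. The median difference was -0.02 for the members and 0.02 for all genes. With the array labelled replicate 1 left out, again 0 members and 0.0% of all genes passed, and the smallest adjusted p of a member was 0.0834.

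With the array labelled replicate 1 left out and dim genes removed, 1 of the 67 members tested passed, namely Prmt8, which rose. This is 1.49% of the members tested, beside 4.64% of the 11626 genes in that comparison, of which 3.29% were higher and 1.34% lower. An unadjusted p below 0.05 was found for 20.9% of members and 28.8% of genes there. The filter asked for at least 2 of the 4 arrays above 5.52, which Prmt8 met only through its mutant arrays. The array was left out after its values had been seen, which makes these p-values too favourable.

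**Figure D1:**
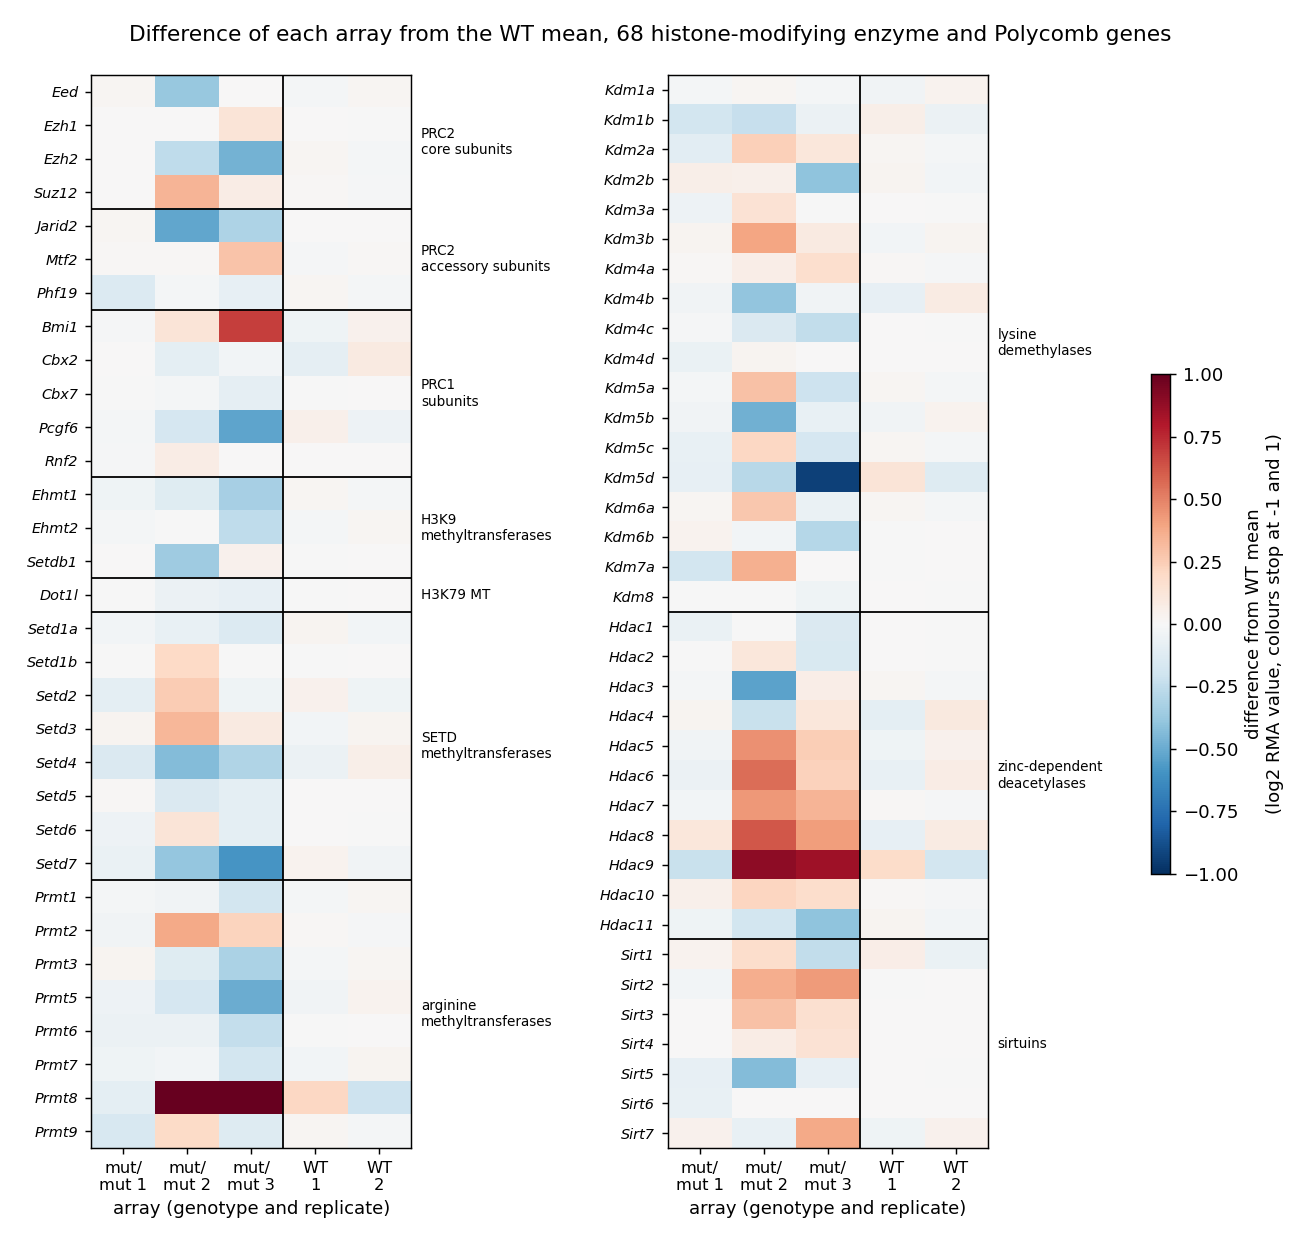
Difference of each array from the WT mean (log2 RMA value) for all 68 genes in rows, with the 3 Trip12 mut/mut arrays left of the 2 WT arrays and lines between role groups. The column of mutant replicate 1 is nearly colourless, with no gene beyond 0.23, while replicates 2 and 3 hold the deepest colours at Prmt8, Hdac9, Kdm5d and Bmi1; colours stop at -1 and 1, which Prmt8 exceeds.

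The spread of the members around the WT mean differed by array. Their differences from the WT mean had an SD of 0.06 on the array labelled replicate 1, 0.34 on replicate 2 and 0.35 on replicate 3, beside 0.10, 0.35 and 0.30 for all genes. None of the 68 members lay more than 0.5 from the WT mean on the array labelled replicate 1. On replicate 2 this held for 6 members (Hdac3, Hdac6, Hdac8, Hdac9, Jarid2 and Prmt8), and on replicate 3 for 6 (Bmi1, Hdac9, Kdm5d, Pcgf6, Prmt8 and Setd7), so that Prmt8 and Hdac9 were the members beyond 0.5 on both. Each count is 8.82% of the members, beside 14.3% of all genes on replicate 2 and 8.77% on replicate 3. Replicates 2 and 3 lay outside the WT range on opposite sides for 12 members, or 17.6%, beside 15.3% of all genes. Averaged over replicates 2 and 3, 64 members, or 94.1%, lay within 0.5 of WT, beside 90.7% of all genes. Within 0.25 lay 49 members, or 72.1%, beside 71.1% of all genes. A 2-fold difference was reached by 1 member, Prmt8, and by 0.907% of all genes.

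Groups that did not overlap were counted as well. With all 5 arrays, every mutant array lay above both WT arrays for 2 members (Hdac8 and Hdac10), or 2.94%, beside 5.73% of all genes, and below both for 8 members, or 11.8%, beside 6.29%. Those 8 were Ehmt1, Hdac11, Kdm4c, Prmt5, Prmt6, Setd4, Setd7 and Sirt5. With the array labelled replicate 1 left out, the mutant arrays lay above for 18 members, or 26.5%, beside 26.7% of all genes, and below for 20, or 29.4%, beside 17.5%.

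**Figure D2:**
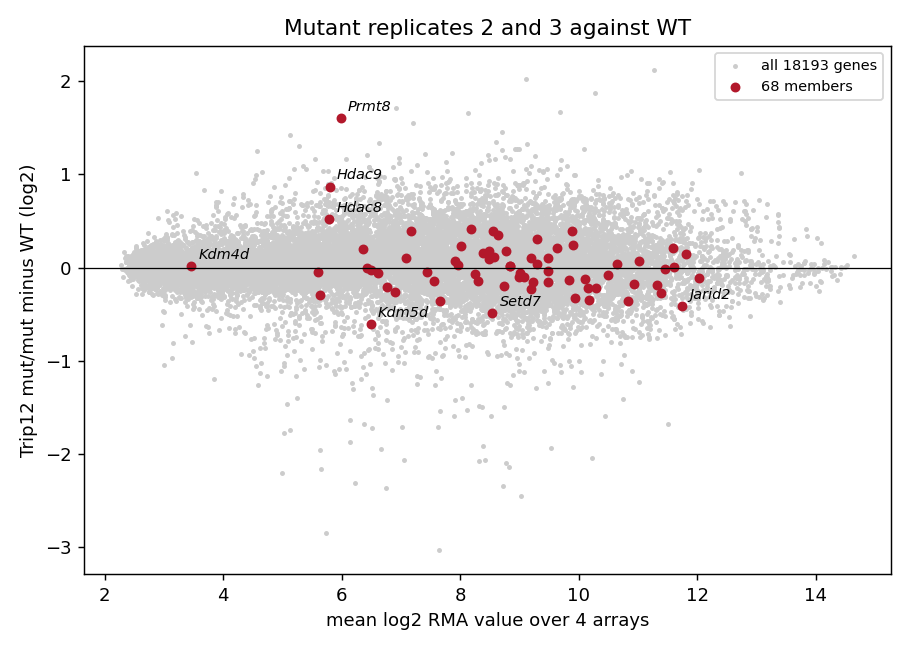
Mean log2 RMA value over mutant replicates 2 and 3 and the 2 WT arrays (x axis) against the difference Trip12 mut/mut minus WT over those arrays (y axis, log2), for all 18193 genes in grey and the 68 members in red. Prmt8 stands at 1.61 and Hdac9 at 0.87 above the other members, and Kdm5d at -0.61 below them. Within 0.5 of 0 lie 64 of 68 members (94.1%), beside 90.7% of all genes.

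Among the core subunits of PRC2, 0 of 4 passed in any of these comparisons. Ezh2, the main methyltransferase of the complex in dividing cells, read 11.02 on the array labelled replicate 1, 10.76 on replicate 2 and 10.55 on replicate 3, against 11.036 and 10.998 on the WT arrays. The arrays of replicates 2 and 3 lay below both WT arrays. Its mean was 10.78 ± 0.24 (SD, n = 3) in mutant and 11.02 ± 0.03 (SD, n = 2) in WT cells, a difference of -0.24 (SE 0.15; limma, adjusted p = 0.748). The difference was -0.36 with the array labelled replicate 1 left out (95% interval -0.66 to -0.07; limma, adjusted p = 0.187). Ezh1, its paralogue and the weaker methyltransferase, read 7.89, 7.89 and 8.01 in mutant and 7.89 and 7.88 in WT cells, so that replicate 3 alone stood apart, by 0.13. Eed, which binds the methylated histone tail, read 11.44, 11.04 and 11.43 in mutant and 11.40 and 11.44 in WT cells, with only replicate 2 outside the WT range. Suz12, a scaffold of the complex, read 11.49, 11.83 and 11.57 in mutant and 11.50 and 11.48 in WT cells. Replicates 2 and 3 lay above both WT arrays, with a difference of 0.21 with the array labelled replicate 1 left out (95% interval -0.13 to 0.55). In order of signal, the other Suz12 probe sets differed by 0.04, 0.15, 0.12, -0.16 and -0.15 over replicates 2 and 3.

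The accessory subunits of PRC2 did not move as a group, and 0 of 3 passed. Jarid2, which helps to bring the complex to its targets in embryonic stem cells, read 11.97, 11.43 and 11.64 in mutant and 11.95 and 11.95 in WT cells. Replicates 2 and 3 were below both WT arrays, and the difference was -0.27 (SE 0.17; limma, adjusted p = 0.748), or -0.41 with the array labelled replicate 1 left out (95% interval -0.69 to -0.13; limma, adjusted p = 0.149). Its other probe sets, at WT means of 11.70 and 11.17, differed by -0.10 and 0.01 over replicates 2 and 3, so the size of the Jarid2 difference depended on the probe set. Mtf2, a DNA-binding Polycomb-like protein, read 11.75, 11.75 and 12.03 in mutant and 11.74 and 11.75 in WT cells, and only replicate 3 left the WT range. Its next 3 probe sets by signal differed by 0.29, 0.27 and -0.12 over replicates 2 and 3. Phf19, another Polycomb-like protein, read 5.49, 5.61 and 5.54 in mutant and 5.65 and 5.61 in WT cells, close to the median of all probe sets on every array.

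**Figure D3:**
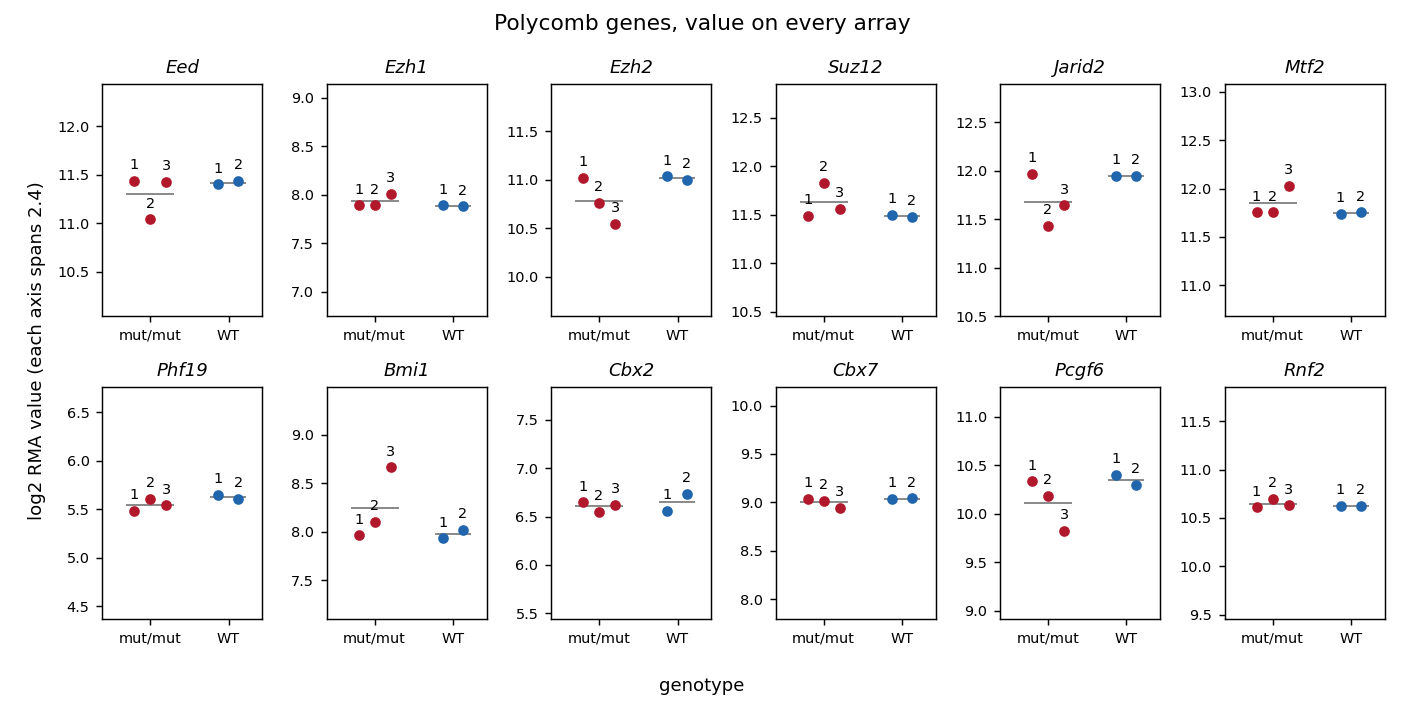
Log2 RMA value on every array for the 12 PRC2 and PRC1 genes, Trip12 mut/mut in red left of WT in blue, with replicate numbers beside the points and group means as grey lines; each axis spans 2.4. Mutant replicate 1 sits at the WT level in every panel, within 0.14 of the WT mean, while Ezh2, Jarid2 and Pcgf6 lie below both WT arrays and Bmi1 and Suz12 above them on replicates 2 and 3.

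In PRC1, 0 of 5 subunits passed. Bmi1, a partner of the ubiquitin ligase subunit that is known as a regulator of stem cell renewal, read 7.96, 8.11 and 8.67 in mutant and 7.93 and 8.02 in WT cells. Its difference of 0.27 (SE 0.23; limma, adjusted p = 0.748) came mainly from replicate 3, and its other probe set read 7.07, 7.36 and 7.82 in mutant and 7.20 and 7.19 in WT cells. The difference was 0.41 with the array labelled replicate 1 left out (95% interval -0.28 to 1.10). Pcgf6, the partner subunit of a PRC1 form that acts on germline genes in embryonic stem cells, read 10.34, 10.18 and 9.82 in mutant and 10.40 and 10.30 in WT cells. Replicates 2 and 3 lay below both WT arrays, with a difference of -0.35 with the array labelled replicate 1 left out (95% interval -0.82 to 0.12), and its other 2 probe sets differed by -0.31 and -0.10.

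On the probe set that stood for each gene, the remaining 3 PRC1 genes stayed within 0.1 of the WT mean on every mutant array. Rnf2, the catalytic ubiquitin ligase subunit, read 10.61, 10.70 and 10.63 in mutant and 10.62 and 10.62 in WT cells, with an interval of -0.11 to 0.19 for the difference with the array labelled replicate 1 left out. Its second probe set, of similar signal, read 10.32, 10.75 and 10.39 in mutant and 10.44 and 10.33 in WT cells. There replicate 2 lay 0.36 above the WT mean. Cbx7, the main subunit that reads methylated histone H3 in embryonic stem cells, read 9.04, 9.02 and 8.95 in mutant and 9.04 and 9.04 in WT cells (interval -0.21 to 0.09). Cbx2, a related reader that compacts chromatin, read 6.65, 6.55 and 6.62 in mutant and 6.56 and 6.73 in WT cells, with all mutant arrays between the WT arrays except replicate 2. On the probe sets that stood for these 3 genes the 95% intervals stayed within 0.33 of 0.

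The H3K9 and H3K79 methyltransferases showed small differences, and 0 of 4 passed. Ehmt1, a subunit of the enzyme that dimethylates H3K9, read 10.36, 10.29 and 10.07 in mutant and 10.43 and 10.38 in WT cells. Every mutant array lay below both WT arrays, with a difference of -0.16 (SE 0.10; limma, adjusted p = 0.748). Its partner Ehmt2 read 9.88, 9.90 and 9.65 in mutant and 9.88 and 9.92 in WT cells, with replicate 3 the lowest. Setdb1, which trimethylates H3K9 at endogenous retroviruses in embryonic stem cells, read 9.31, 8.95 and 9.35 in mutant and 9.30 and 9.31 in WT cells, so that replicates 2 and 3 lay on opposite sides of WT. Dot1l, the H3K79 methyltransferase, read 8.28, 8.22 and 8.20 in mutant and 8.28 and 8.29 in WT cells (difference with the array labelled replicate 1 left out of -0.07, 95% interval -0.20 to 0.05).

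Of the 8 SETD genes 0 passed, and 2 of them had the largest negative differences over all 5 arrays among the autosomal members. Setd7, a lysine monomethyltransferase with histone and other substrates, read 8.72, 8.40 and 8.20 in mutant and 8.82 and 8.75 in WT cells, and every mutant array lay below both WT arrays. Its mean was 8.44 ± 0.26 (SD, n = 3) in mutant and 8.79 ± 0.05 (SD, n = 2) in WT cells, a difference of -0.35 (SE 0.17; limma, adjusted p = 0.748). With the array labelled replicate 1 left out it was -0.49 (95% interval -0.78 to -0.20; limma, adjusted p = 0.124), or 1.40-fold lower. Setd4 read 7.70, 7.42 and 7.55 in mutant and 7.79 and 7.91 in WT cells, again with no overlap, and differed by -0.29 (SE 0.11; limma, adjusted p = 0.748). Its second probe set, at a WT mean of 7.64, differed by -0.10 over replicates 2 and 3, and its remaining one by 0.01. The other 6 SETD genes, among them the H3K4 methyltransferases Setd1a and Setd1b and the H3K36 methyltransferase Setd2, lay between -0.12 and 0.21 with the array labelled replicate 1 left out.

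Prmt8 stood apart from the other arginine methyltransferases. It encodes a membrane-anchored enzyme closely related to Prmt1 and known mainly from the brain. It read 5.08 on the array labelled replicate 1, 6.69 on replicate 2 and 6.88 on replicate 3, against 5.39 and 4.98 on the WT arrays. Replicates 2 and 3 were 2.85-fold and 3.26-fold above the WT mean, and the array labelled replicate 1 lay between the WT arrays. Over all 5 arrays its mean was 6.22 ± 0.99 (SD, n = 3) in mutant and 5.18 ± 0.29 (SD, n = 2) in WT cells, a difference of 1.04 (SE 0.63; limma, adjusted p = 0.748). With the array labelled replicate 1 left out the difference was 1.61, or 3.05-fold (95% interval 1.05 to 2.16; limma, adjusted p = 0.0834), and with dim genes removed as well its adjusted p was 0.0422. Both p-values are too favourable, because the array was left out after its values had been seen. Prmt8 also met the filter only through its mutant arrays. The gene has 1 probe set, whose WT values lie below the median of all probe sets, and RMA gives no detection call. The CpG-rich sequence shown above is the promoter window of the first of its 2 listed starts.

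The other 7 arginine methyltransferases did not pass. Prmt2, a coactivator of nuclear receptors, read 9.12, 9.53 and 9.37 in mutant and 9.16 and 9.14 in WT cells, a difference of 0.30 with the array labelled replicate 1 left out (95% interval 0.07 to 0.53; limma, adjusted p = 0.169), and its second probe set differed by 0.38. Prmt5, the main enzyme for symmetric dimethylation and needed by pluripotent cells, read 10.05, 9.93 and 9.61 in mutant and 10.06 and 10.14 in WT cells. Every mutant array lay below both WT arrays, with a difference of -0.24 (SE 0.15; limma, adjusted p = 0.748). Prmt1, the main enzyme for asymmetric dimethylation and the closest relative of Prmt8, read 12.07, 12.06 and 11.91 in mutant and 12.07 and 12.11 in WT cells. Its interval with the array labelled replicate 1 left out was -0.33 to 0.11. Prmt3, Prmt6, Prmt7 and Prmt9 lay between -0.22 and 0.03 in the same comparison.

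**Figure D4:**
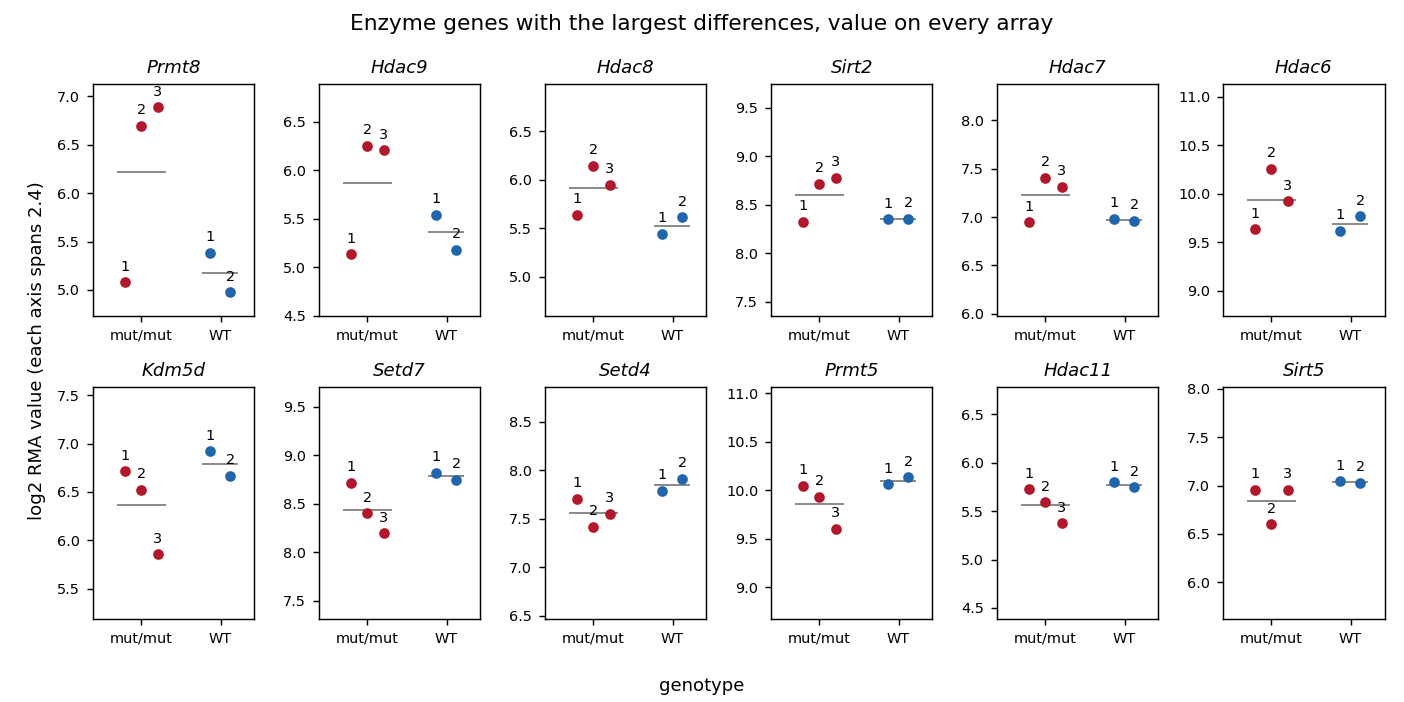
Log2 RMA value on every array for the 6 enzyme genes with the largest positive differences (upper row) and the 6 with the largest negative differences (lower row) over all 5 arrays. The PRC2 and PRC1 genes, Ezh2 among them, were left out of this ranking. Trip12 mut/mut is in red left of WT in blue, with replicate numbers beside the points and group means as grey lines. Each axis spans 2.4. Prmt8 at 6.69 and 6.88 and Hdac9 at 6.25 and 6.21 on mutant replicates 2 and 3 stand clear of both WT arrays, while mutant replicate 1 lies at or near the WT level throughout.

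The zinc-dependent deacetylases had the highest median difference of the role groups with at least 3 members, 0.20 with the array labelled replicate 1 left out, beside 0.02 for all genes, and 0 of 11 passed. Hdac9, a deacetylase of class IIa known from muscle and nerve that acts through Mef2 factors, read 5.14, 6.25 and 6.21 in mutant and 5.54 and 5.18 in WT cells. Replicates 2 and 3 were 1.86-fold and 1.80-fold above the WT mean, and its difference of 0.50 over all 5 arrays (SE 0.41; limma, adjusted p = 0.748) became 0.87 with the array labelled replicate 1 left out (95% interval 0.41 to 1.33; limma, adjusted p = 0.110). Its WT mean, 5.36, lay below the median of all probe sets, 5.52. The second probe set of Hdac9, at a WT mean of 3.78, differed by -0.06. Hdac7, of the same class, read 6.95, 7.41 and 7.31 in mutant and 6.98 and 6.96 in WT cells (0.39 with the array labelled replicate 1 left out), and its second probe set differed by 0.35. Hdac5, also of class IIa, read 8.42, 8.92 and 8.71 in mutant and 8.42 and 8.50 in WT cells. Hdac4, the remaining member of that class, read 7.49, 7.24 and 7.57 in mutant and 7.36 and 7.56 in WT cells. Replicate 2 lay below the WT range and replicate 3 only just above it. On its second probe set, which read 7.08, 7.08 and 7.08 in mutant and 6.91 and 7.03 in WT cells, every mutant array lay above both WT arrays. On the same 2 arrays the fibroblast markers were higher on average, as given above, with 4 of the 13 tested called higher. Not all of them rose, and Mmp2 and Lum were below both WT arrays on replicate 2. Any link to the deacetylase values was not tested.

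Hdac8, an X-linked class I enzyme that deacetylates cohesin, read 5.64, 6.14 and 5.95 in mutant and 5.44 and 5.61 in WT cells. Every mutant array lay above both WT arrays, and the difference was 0.38 (SE 0.17; limma, adjusted p = 0.748). The WT values of Hdac8 lay close to the median of all probe sets, 5.52. Hdac6, an X-linked enzyme that deacetylates tubulin in the cytoplasm, read 9.63, 10.26 and 9.92 in mutant and 9.62 and 9.77 in WT cells. Of the class I enzymes of nuclear corepressor complexes, Hdac1 read 10.47, 10.54 and 10.39 in mutant and 10.55 and 10.54 in WT cells, and Hdac2 read 11.47, 11.58 and 11.32 in mutant and 11.48 and 11.47 in WT cells. The second probe set of Hdac2 read 9.92, 9.63 and 9.65 in mutant and 9.97 and 9.90 in WT cells. It differed by -0.29 over replicates 2 and 3, and the third, at a WT mean of 5.93, by 0.09. Hdac3 read 9.30, 8.78 and 9.38 in mutant and 9.33 and 9.30 in WT cells, so that replicate 2 alone was low. Hdac11, the class IV enzyme, read 5.73, 5.59 and 5.37 in mutant and 5.80 and 5.75 in WT cells, a difference of -0.21 (SE 0.12; limma, adjusted p = 0.748), with no overlap.

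Of the 7 sirtuins 0 passed. Sirt2, a mainly cytoplasmic deacetylase, read 8.32, 8.72 and 8.77 in mutant and 8.35 and 8.35 in WT cells, and replicates 2 and 3 lay above both WT arrays by a similar amount. Its difference was 0.25 over all 5 arrays and 0.39 with the array labelled replicate 1 left out (95% interval 0.25 to 0.54; limma, adjusted p = 0.0834, and 0.0584 with dim genes removed). Sirt3, the main mitochondrial deacetylase, read 7.90, 8.19 and 8.06 in mutant and 7.90 and 7.90 in WT cells. Sirt5, a mitochondrial enzyme that removes succinyl and malonyl groups, read 6.95, 6.60 and 6.95 in mutant and 7.04 and 7.03 in WT cells, a difference of -0.20 (SE 0.13) that came mainly from replicate 2. Sirt1, a nuclear deacetylase of p53 and histones, read 9.54, 9.68 and 9.26 in mutant and 9.57 and 9.44 in WT cells, with replicates 2 and 3 on opposite sides of WT.

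The 18 lysine demethylases had a median difference of 0.01 with the array labelled replicate 1 left out, and 0 of the 17 tested after the filter passed; Kdm4d, at 3.38 to 3.48 on mutant and 3.45 on WT arrays, did not meet the filter. Kdm5d, a Y-linked H3K4 demethylase, had the largest negative difference of all members and read 6.71, 6.52 and 5.86 in mutant and 6.92 and 6.67 in WT cells. Its difference was -0.43 (SE 0.29; limma, adjusted p = 0.748), and with the array labelled replicate 1 left out it was -0.61 with a 95% interval of -1.47 to 0.26. It came mainly from replicate 3, at -0.94 from the WT mean, against -0.27 on replicate 2. Kdm5b, an autosomal relative with a known role in self-renewal, read 11.50, 11.05 and 11.46 in mutant and 11.50 and 11.57 in WT cells, so that replicate 2 alone was clearly low. Its next 2 probe sets by signal, at WT means of 8.55 and 7.25, differed by 0.03 and 0.06 over replicates 2 and 3. Kdm3b, an H3K9 demethylase, read 9.82, 10.18 and 9.88 in mutant and 9.76 and 9.82 in WT cells.

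Demethylases known from embryonic stem cells are given next. Kdm1a, which removes H3K4 methylation when enhancers are shut down, read 11.59, 11.63 and 11.59 in mutant and 11.57 and 11.64 in WT cells, with a 95% interval of -0.16 to 0.16 with the array labelled replicate 1 left out. Kdm2b, which recruits a PRC1 form to CpG islands, read 11.09, 11.08 and 10.63 in mutant and 11.06 and 11.00 in WT cells, and only replicate 3 was low. Of the H3K27 demethylases, Kdm6a read 9.45, 9.70 and 9.36 in mutant and 9.45 and 9.41 in WT cells, and Kdm6b read 9.59, 9.53 and 9.27 in mutant and 9.55 and 9.56 in WT cells, with replicate 3 the lowest array for both. Kdm5a, Kdm5c and Kdm6a, like Kdm2b, had replicates 2 and 3 on opposite sides of the WT range on the probe set that stood for each gene. The second probe set of Kdm5c, of nearly equal signal, read 8.95, 8.28 and 8.92 in mutant and 8.95 and 8.96 in WT cells. There replicates 2 and 3 both lay below the WT arrays. On their second probe sets the pattern held for Kdm6a but not for Kdm5a or Kdm2b.

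Other genes of the same pathways were read from 8 lists with 111 genes, none of them members, of which 104 were measured and 98 tested with the array labelled replicate 1 left out and with dim genes removed. Of these 2 fell, both from the list of other histone methyltransferases (15 tested), and 0 rose, or 2.04%, beside 4.64% of all genes. Suv39h2, which trimethylates H3K9 in heterochromatin, read 8.08, 7.31 and 7.52 in mutant and 8.19 and 8.11 in WT cells, and fell by 0.74 (SE 0.10; limma, adjusted p = 0.0492). Carm1, an arginine methyltransferase that the naming pattern of the Prmt genes leaves out, read 8.38, 7.93 and 7.80 in mutant and 8.45 and 8.56 in WT cells, and fell by 0.64 (SE 0.09; limma, adjusted p = 0.0493). Both had an adjusted p of 0.748 over all 5 arrays. Of histone acetyltransferases (17 tested), MLL and COMPASS subunits (15), other demethylases and JmjC proteins (9), other PRC2 subunits (6), other PRC1 subunits (15), H2A deubiquitinases with ASXL proteins (6) and corepressor subunits of deacetylase complexes (15), 0 passed. As a comparison from outside these pathways, the 8 markers of the primed epiblast, which include the DNA methyltransferases Dnmt3a and Dnmt3b, had a median of -1.80 with the array labelled replicate 1 left out, and all 8 fell in the filtered comparison; these marker genes were listed with that pattern already known.

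Members with several probe sets did not always have probe sets of 1 sign. Of 45 members with more than 1 probe set, 30 had more than 1 whose mean reached 5.52, the median of all probe sets. Over replicates 2 and 3, all such probe sets of a gene had the same sign for 17 of these 30, and both signs for 13. Pcgf6, Bmi1, Hdac7 and Prmt2 were among those whose bright probe sets moved together, and Jarid2, Mtf2 and Kdm5b were among those with both signs.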

How the data were processed

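RNA was measured on 5 Affymetrix arrays, 3 Trip12 mut/mut and 2 WT. Deposited values are log2 and, per the submitters' processing notes, were made with RMA, which subtracts background, puts arrays on a common scale and joins the probes of a set, with no version stated in the labels used here. Precision is limited by having 5 arrays. Of 45101 probe sets, 64 controls were left out. The platform annotation named 1 gene for 34945, several for 932 and none for 9160, and only the first were used; 34741 were matched by gene number to RefSeq GRCm38.p6, which changed no membership.

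Genes were compared over all 18193 genes with limma 3.58.1 under R 4.3.3, using lmFit and eBayes with a single genotype term, two-sided p-values, Benjamini-Hochberg adjustment over all genes and a threshold of 0.05. Intervals come from the same fits. The filtered comparison left out the array labelled Trip12 mut/mut replicate 1 and kept 11626 genes with at least 2 of 4 arrays above the median of all probe sets. The procedure was tested on simulated data. There a true difference of 1 was called for 54 of 100 genes with all 5 arrays and for 49 of 100 in the filtered comparison. A true difference of 2 was called for 84 and 80 of 100. A member that did not pass may therefore still differ. Values on every array are given for members past the threshold in the filtered comparison, for the 10 largest positive and 10 largest negative differences over all 5 arrays among members at or above that median, and for all Polycomb, H3K9 and H3K79 genes; further members given array by array were chosen after their values were seen. Alternatives were quantile normalisation, centred medians, the filter, array weights, robust estimation with a variance trend, leaving out each array, the replicate number as a block, and other choices of probe set. The members and lists were chosen with earlier results of these data known. Plots used matplotlib 3.10.9 under Python 3.11.15.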

Additional observations from a re-analysis of the deposited data

How the results depend on the processing

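Over 14 alternatives, 437 of 448 differences of the 32 named members kept their sign and did not pass, 1 passed (Prmt8) and 10 changed sign. Sign changes were limited to 6 genes with small differences, none of which passed. With the probe set of largest SD, Cbx2 read 0.0739, Cbx7 0.0803, Rnf2 -0.13 and Suz12 -0.11. With the mean of probe sets, Cbx2 read 0.017 and Rnf2 -0.0011. With each array left out, Eed ranged from -0.186 to 0.0121, Rnf2 from -0.0019 to 0.0424 and Setdb1 from -0.175 to 0.0237, each changing sign without Trip12 mut/mut replicate 2, and Cbx2 from -0.129 to 0.0478, changing sign without WT replicate 2. The count of all genes passing was 0 over all 5 arrays and under 13 alternatives, and 539 without the array labelled replicate 1 and with dim genes removed, where 1 member passed. The unadjusted count over all 5 arrays was 214 genes. The median difference of the members was -0.02 over all 5 arrays, -0.0519 with array weights, and -0.04 to -0.0026 with each array left out. The cause of the shift with weights was not tested. The Prmt8 difference ranged from 0.71 to 1.61 and its adjusted p from 0.0422 to 0.987. With the replicate number as a block (2 pairs), 0 genes and 0 members passed and the members' median was -0.0026. Deviations of same-numbered arrays from their group means had r = -0.05 and -0.08 across genes. With only 2 WT arrays, whose deviations mirror each other, this cannot decide whether the numbers mark pairs. Tied RMA values make the spread of some probe sets 0.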

Other observations

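Kdm5d was set beside other Y-linked genes with a probe set above the median, chosen after the values were seen. Uba1y, the Y-linked ubiquitin-activating enzyme gene, read 8.14, 7.20 and 6.96 in mutant and 8.25 and 8.28 in WT cells on its brighter probe set. Eif2s3y read 9.997, 9.96 and 9.71 in mutant and 10.01 and 9.997 in WT cells. The Uty probe set with the highest signal, for the Y-linked relative of Kdm6a, read 7.72, 7.89 and 7.39 in mutant and 7.68 and 7.58 in WT cells. Sry read 5.78, 5.89 and 5.58 in mutant and 5.60 and 5.52 in WT cells. Replicate 3 was the lowest array on these probe sets of Uba1y, Eif2s3y and Uty, as for Kdm5d, but not for Sry, which was above both WT arrays on replicate 2. A further Uty probe set read 6.47, 6.47 and 6.37 in mutant and 6.57 and 6.66 in WT cells, so that the probe sets of Uty differed on replicate 2. Its remaining probe set read 6.25, 6.32 and 6.16 in mutant and 6.25 and 6.25 in WT cells, and the second one of Uba1y read 7.503, 6.57 and 6.07 in mutant and 7.52 and 7.31 in WT cells.

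For 20 of 68 members (29.4%) the value deposited for mutant replicate 1 was identical to that of a WT array, beside 30.9% of all genes. For 7 of 68 members both WT arrays held an identical value, beside 3473 of 18193 genes. Such ties were not particular to replicate 1: for Sirt6, mutant replicates 2 and 3 held the value of both WT arrays. Ties on replicates 2 and 3 were not counted.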
